A study of Litchi chinensis with 18 samples.

Results

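The genes described here move water, potassium and protons across litchi membranes. They were chosen from the annotation of the gene table alone, as the loci with a Swiss-Prot match naming an aquaporin, a potassium channel, a potassium transporter, a cation/H(+) antiporter or a plasma membrane-type ATPase, or a match whose name begins with Plasma membrane ATPase or ATPase, and calcium-transporting ATPases were left out. The rule took 191 gene models at 168 of 34024 loci, and the values of the models of a locus were summed. The 168 members are 12 plasma membrane intrinsic proteins (PIP), 11 tonoplast intrinsic proteins (TIP), 22 NIP or SIP aquaporins, 28 potassium channels, 33 potassium transporters, 37 cation/H+ antiporters (CHX), 12 plasma membrane H+-ATPases and 13 other proteins whose name begins with ATPase. These last 13 are FIGL1, ARSA and At1g05910-type proteins and no membrane proton pumps, so they are described apart. Of the 168 loci, 136 had enough reads to be tested, 20 had no read in any library, and the other 12 had at most 68 reads over the 18 libraries. Members are named by their best Swiss-Prot match, which came from Arabidopsis for 128 of them, and 128 share their name with at least 1 other member. Reads of such near copies could have been divided between loci during counting.

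Litchi (Litchi chinensis, cultivar 'Feizixiao') bears female and male flowers on the same tree. Stamens and carpels were taken from functionally female flowers (F), whose stamens are rudimentary, from functionally male flowers with a barely visible pistil rudiment (M) and from functionally male flowers with a clear pistil rudiment (m). The 6 organs are called F-stamen, F-carpel, M-stamen, M-carpel, m-stamen and m-carpel, each with 3 RNA-seq libraries from trees of an orchard. The methods state that material was sampled 3 times, in the morning, from parts of the tree facing all sides. They do not say whether the 3 libraries of an organ came from separate trees, so p-values measure only the spread between these libraries. Total counts were 25689398 to 32302522 per library, and log2 values of libraries of 1 organ correlated at 0.971 to 0.981 across loci.

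The organ labels were compared with marker genes. The stamen identity gene LcPI had 409 ± 3.16, 643 ± 28.7 and 374 ± 13.2 FPKM in the F, M and m stamens, against 2.61 ± 0.861, 76.7 ± 1.99 and 4.01 ± 0.498 FPKM in the matching carpels (mean ± SD, n = 3). FPKM is the number of fragments per kilobase of transcript, scaled to the mapped fragments of the library, and it is used here for levels. The carpel level of LcPI was 0.637% of the stamen level in F, 11.9% in M and 1.07% in m flowers. For the other stamen identity gene, LcAP3-1, it was 36.0%, 20.1% and 17.5%, so M-carpel stood highest for LcPI and F-carpel for LcAP3-1. The ovule identity gene LcSTK had 32.9 ± 2.05 FPKM in F-carpel and 7.85 ± 0.321 FPKM in m-carpel, but 1.12 ± 0.328 FPKM in M-carpel, and at most 0.743 FPKM on average in the stamens. The other carpel identity gene, LcSHP, had 14.1 ± 0.184, 16.5 ± 0.381 and 9.28 ± 1.18 FPKM in the F, M and m stamens, against 26.2 ± 2.01, 7.83 ± 0.759 and 18.2 ± 0.563 FPKM in the carpels. Summed over both genes, the level was 16.4 to 17.3 FPKM in M-stamen against 8.16 to 10.1 FPKM in M-carpel, and every M-carpel library thus lay below every M-stamen library in this sum. The locus annotated as CRABS CLAW was highest in M-stamen (56.2 ± 1.81 FPKM), and the pollen-specific protein C13 locus was as high in F-carpel (317 ± 9.87 FPKM) as in M-stamen (312 ± 20.3 FPKM), so these did not separate the organs as their names would.

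As background, plasma membrane H+-ATPases pump protons out of the cell and so build the voltage and the pH gradient that power other transport. Potassium channels let potassium follow that voltage, potassium transporters of the KUP/HAK/KT family can take it up against its gradient, and CHX proteins exchange cations for protons, many of them in inner membranes. Aquaporins let water follow: PIPs sit in the plasma membrane, TIPs in the vacuole membrane, and NIPs also pass small neutral solutes such as boric acid. In stamens and pistils these proteins are known for the swelling and drying of tissues, the opening of anthers and the growth of pollen tubes.

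Stamens and carpels of the same flower type were compared first. A locus was called when its false discovery rate (FDR) in edgeR's quasi-likelihood test, adjusted by the Benjamini-Hochberg method over 24666 loci, was below 0.01 and its log2 fold change was at least 1 in size. In F flowers 56 members were called higher and 16 lower in stamen, 72 in all or 52.9% of the 136 tested, while 37% of all loci tested were called (21.4% higher, 15.6% lower). In M flowers 51 were called higher and 8 lower in stamen, or 43.4%, against 26.7% of all loci (15.7% higher, 11% lower). In m flowers 71 were called higher and 15 lower in stamen, or 63.2%, against 41.3% of all loci (23.6% higher, 17.7% lower). For the mean of the 3 stamens against the mean of the 3 carpels, 56 members were called higher and 9 lower, against 32.2% of all loci (20% higher, 12.2% lower). In whole organs, fewer cells of a type and less RNA per cell cannot be told apart.

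Direction was shared by many members across flower types. There were 34 members called higher in the stamen of all 3 types, or 25% of the 136 tested against 8.11% of all loci. Of these, 18 were CHX antiporters, 4 potassium channels, 4 potassium transporters, 3 H+-ATPases, 3 NIP aquaporins, 1 the aquaporin TIP5-1 and 1 a FIGL1-type protein. By contrast, 2 members (1.47%, against 2.15% of all loci) were called lower in stamen in all 3 types, the H+-ATPase AHA10 (LITCHI029867) and the potassium channel AKT1 (LITCHI016676). A further 10 members (7.35%, against 7.82% of all loci) were called higher in stamen in 1 flower type and lower in another, and 33 (24.3%, against 41.9%) were called in none of the 3 comparisons. The CHX class accounted for more of the stamen calls than any other class, with 25, 18 and 25 of its 30 tested members called higher in F-stamen, M-stamen and m-stamen. These were 83.3%, 60% and 83.3% of the class, against 21.4%, 15.7% and 23.6% of all loci.

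**Figure D1:**
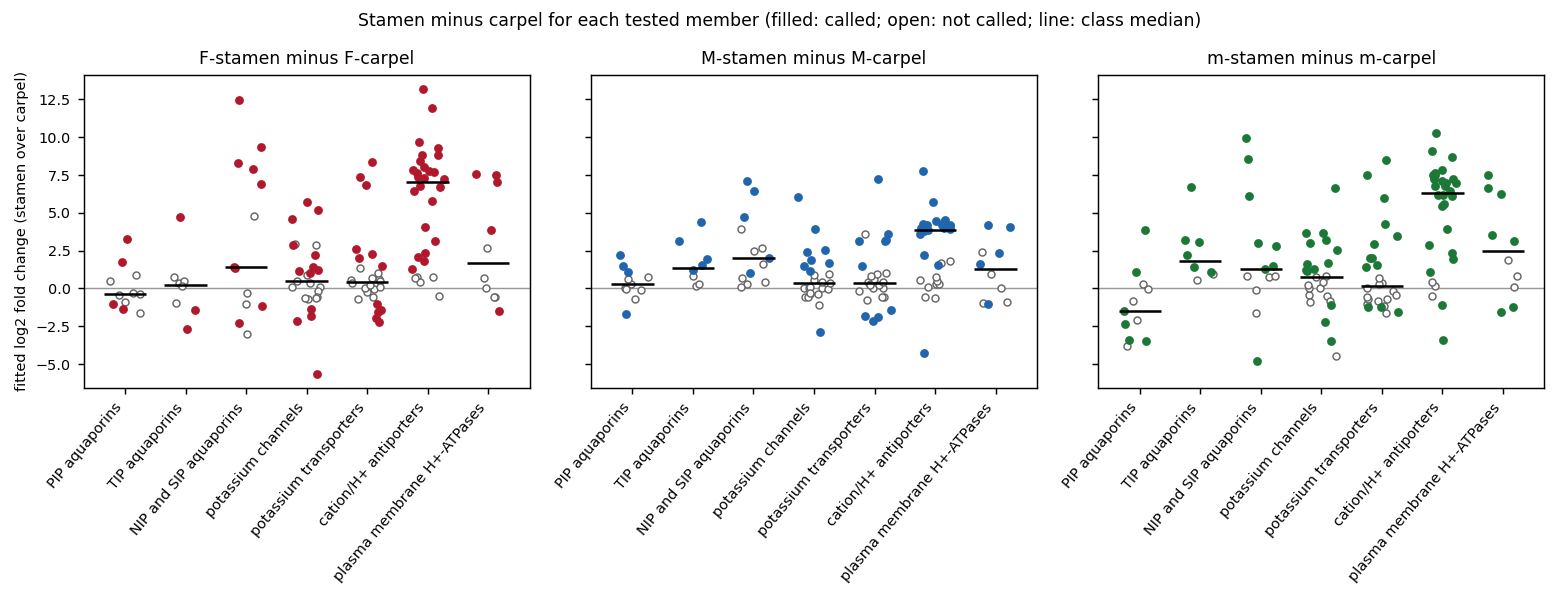
Fitted log2 fold change of stamen over carpel in F, M and m flowers for every tested aquaporin, potassium channel and transporter, CHX antiporter and H+-ATPase, with called members filled, members not called open and the class median as a line. The CHX medians are 7.02, 3.85 and 6.30, and the PIP medians are -0.35, 0.27 and -1.5; values against an organ with no reads depend on the fit.

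Added up per class, the levels of the H+-ATPases and the CHX antiporters separated every stamen library from every carpel library of any flower. The 12 H+-ATPase loci summed to 1572 ± 28.1 FPKM in F-stamen, 278 ± 4.91 in F-carpel, 993 ± 34.5 in M-stamen, 293 ± 17.5 in M-carpel, 2076 ± 59.0 in m-stamen and 245 ± 5.33 in m-carpel (SD, n = 3 each). The CHX loci summed to 353 ± 5.57 FPKM in F-stamen, 51.2 ± 1.57 in F-carpel, 287 ± 7.85 in M-stamen, 151 ± 11.6 in M-carpel, 581 ± 7.29 in m-stamen and 102 ± 2.88 in m-carpel. Potassium transporters were highest in M-stamen, at 672 ± 16.7 FPKM, and potassium channels in F-carpel, at 187 ± 7.25 FPKM, close to the 179 ± 2.03 FPKM of F-stamen. These sums leaned on single loci. The channel beta subunit KAB (LITCHI015118) gave 108 FPKM of the F-carpel sum and 62.7 FPKM of the F-stamen sum. The transporter POT13 (LITCHI009724) gave 333 FPKM of the M-stamen sum. PIP sums did not follow the organs: m-stamen had 1216 ± 18 FPKM and m-carpel 1339.8 ± 31.6, while M-stamen had 1307 ± 22.7 FPKM and M-carpel 744.5 ± 20.1.

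**Figure D2:**
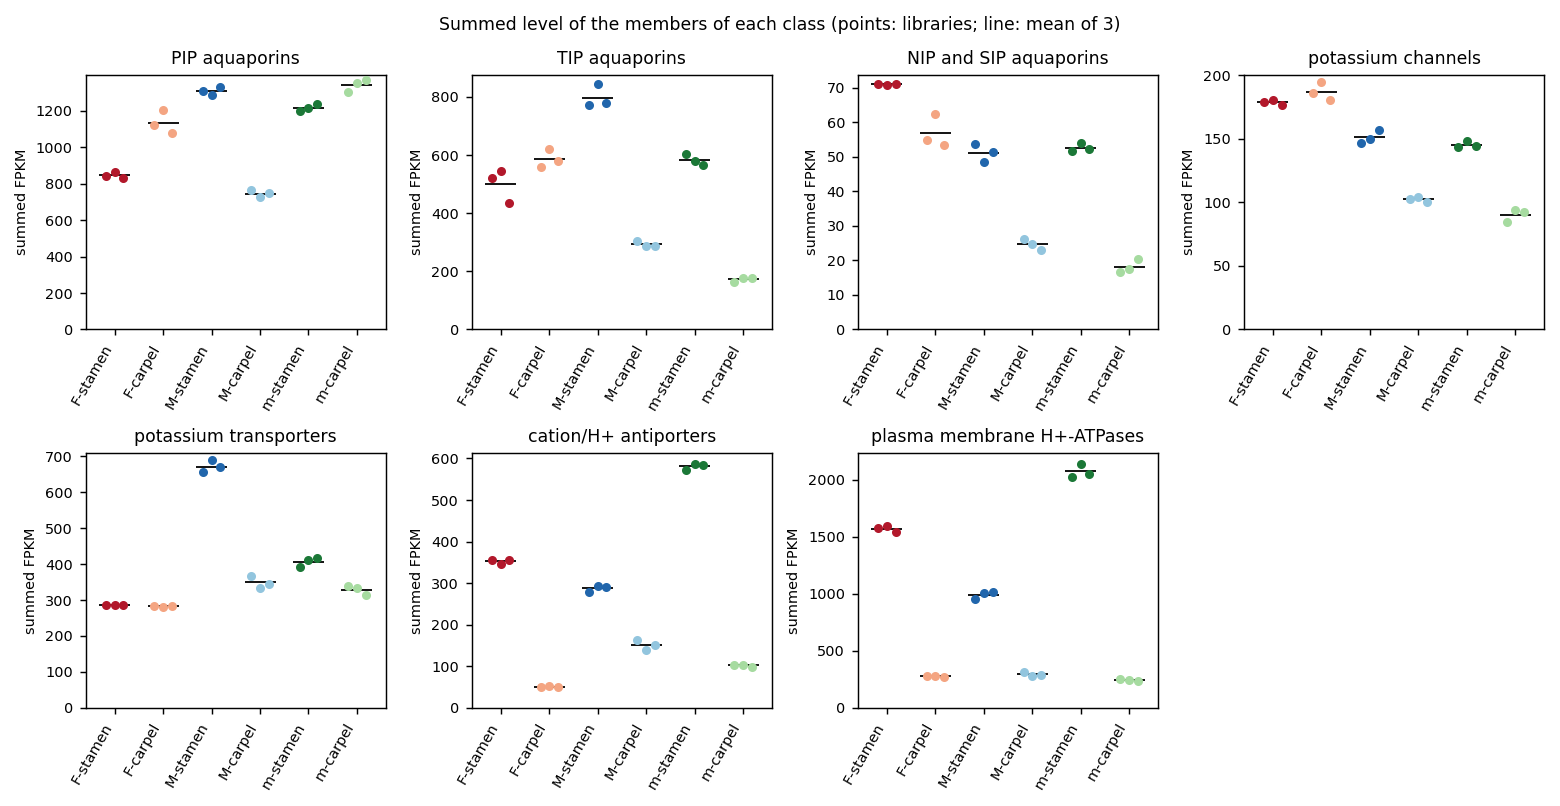
Summed FPKM of the members of 7 classes in each of the 18 libraries (points) with the mean of the 3 libraries of an organ (line), on axes that start at 0. H+-ATPase sums are 954 to 2143 FPKM in stamens and 239 to 312 FPKM in carpels.

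The H+-ATPases were led by 1 gene. AHA8 (LITCHI016279) is the litchi match of an Arabidopsis pump that works in pollen together with AHA6 and AHA9. AHA8 had 1248, 1274 and 1215 FPKM in F-stamen, against 7.30, 7.42 and 6.56 FPKM in F-carpel. Its values were 563, 598 and 627 FPKM in M-stamen, against 41.2, 33.7 and 36.8 FPKM in M-carpel. In m flowers, AHA8 had 1655, 1743 and 1669 FPKM in m-stamen, against 19.8, 19.3 and 21.8 FPKM in m-carpel. Every stamen library lay above every carpel library, and the m-stamen libraries were the highest and the F-carpel libraries the lowest of the 18. The log2 fold change was 7.58 ± 0.08 (SE, edgeR FDR 4.01e-20) in F, 4.05 ± 0.07 (SE, edgeR FDR 1.44e-17) in M and 6.62 ± 0.08 (SE, edgeR FDR 5.33e-20) in m flowers. AHA8 alone made up 78.8% to 79.7% of the summed H+-ATPase FPKM in F-stamen and 81.2% to 81.5% in m-stamen, but 59.0% to 61.5% in M-stamen. Among the stamens, M-stamen was below m-stamen, with a log2 fold change of -1.75 ± 0.06 (SE, edgeR FDR 5.22e-13).

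AHA9 (LITCHI030962), another pollen and anther pump in Arabidopsis, had the same division at a lower level. AHA9 had 116, 116 and 116 FPKM in F-stamen, against 0.629, 0.795 and 0.696 FPKM in F-carpel. Its values were 118, 129.5 and 126 FPKM in M-stamen, against 8.41, 7.08 and 6.08 FPKM in M-carpel. In m flowers, AHA9 had 142, 150.3 and 142 FPKM in m-stamen, against 2.28, 2.32 and 2.26 FPKM in m-carpel. The stamens were again separate from the carpels, with log2 fold changes of 7.48, 4.16 and 6.23 in F, M and m flowers (edgeR FDR at most 1.12e-16), and F-stamen minus M-stamen was -0.21 ± 0.07 (SE, edgeR FDR 0.0236). Of the weakly expressed AHA7 loci, LITCHI025374 was called higher in all 3 stamens, at 3.20 ± 0.150 FPKM in F-stamen against 0.226 ± 0.0763 in F-carpel. LITCHI002680 had reads in F-stamen and m-stamen only, 0.493 ± 0.231 and 0.518 ± 0.303 FPKM. The tested AHA6 locus, LITCHI007257, did not share the division of AHA8 and AHA9. It had 3.29, 4.56 and 3.03 FPKM in F-stamen, against 6.63, 4.99 and 5.64 FPKM in F-carpel. In M flowers it had 2.81, 3.53 and 2.46 FPKM in stamen, against 5.9, 5.67 and 5.16 FPKM in carpel. In m flowers it had 4.12, 5.37 and 4.57 FPKM in stamen, against 5.34, 5.46 and 5.17 FPKM in carpel.

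The general pumps were present in all organs. PMA4 (LITCHI016431), named after a plasma membrane pump of Nicotiana, had the second highest mean FPKM of the H+-ATPases over the 6 organs. PMA4 had 69.4, 67.5 and 69.2 FPKM in F-stamen, against 47.3, 49.2 and 45.1 FPKM in F-carpel. Its values were 120.1, 128 and 114 FPKM in M-stamen, against 43.6, 38.3 and 38.8 FPKM in M-carpel. In m flowers, PMA4 had 134, 143 and 143 FPKM in m-stamen, against 19.0, 20 and 18.6 FPKM in m-carpel. It was called higher in M-stamen and m-stamen than in the matching carpel (1.63 ± 0.05 SE, edgeR FDR 1.74e-14 and 3.11 ± 0.05 SE, edgeR FDR 2.59e-18), and in F flowers the difference was 0.67, under the minimum fold change. PMA3 (LITCHI017917) was called lower in m-stamen (34 ± 1.57 FPKM) than in m-carpel (96.7 ± 3.95 FPKM). AHA11 (LITCHI022228) had its highest level in F-carpel (77.5 ± 0.971 FPKM), with a log2 fold change of 1.23 ± 0.04 (SE, edgeR FDR 4.82e-14) over m-carpel.

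AHA10 (LITCHI029867) was higher in every carpel. In Arabidopsis its protein acidifies the vacuole of seed coat cells that store proanthocyanidins. The level was 24.1 ± 1.64, 28.6 ± 2.30 and 20.7 ± 1.10 FPKM in the F, M and m stamens, against 72.5 ± 1.73, 60.2 ± 1.63 and 73.2 ± 2.98 FPKM in the matching carpels. No stamen library overlapped a carpel library, and the log2 fold change was -1.46 ± 0.07 (SE, edgeR FDR 1.79e-12) in F, -1.03 ± 0.07 (SE, edgeR FDR 3.3e-10) in M and -1.58 ± 0.07 (SE, edgeR FDR 5.14e-13) in m flowers. No difference between the 3 carpels was called, and the largest of them was -0.33 ± 0.06 (SE, edgeR FDR 0.00038) for M-carpel minus m-carpel. Over the 10 tested H+-ATPases, 4, 4 and 5 (40%, 40% and 50%, against 21.4%, 15.7% and 23.6% of all loci) were called higher in F, M and m stamens. Called lower were 1, 1 and 2 (10%, 10% and 20%, against 15.6%, 11% and 17.7% of all loci). The median log2 fold changes were 1.68, 1.30 and 2.49 (1.63, 1.30 and 2.24 with loci at 0 reads put at their bound), against 0.08, 0.01 and 0.00 over all loci.

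**Figure D3:**
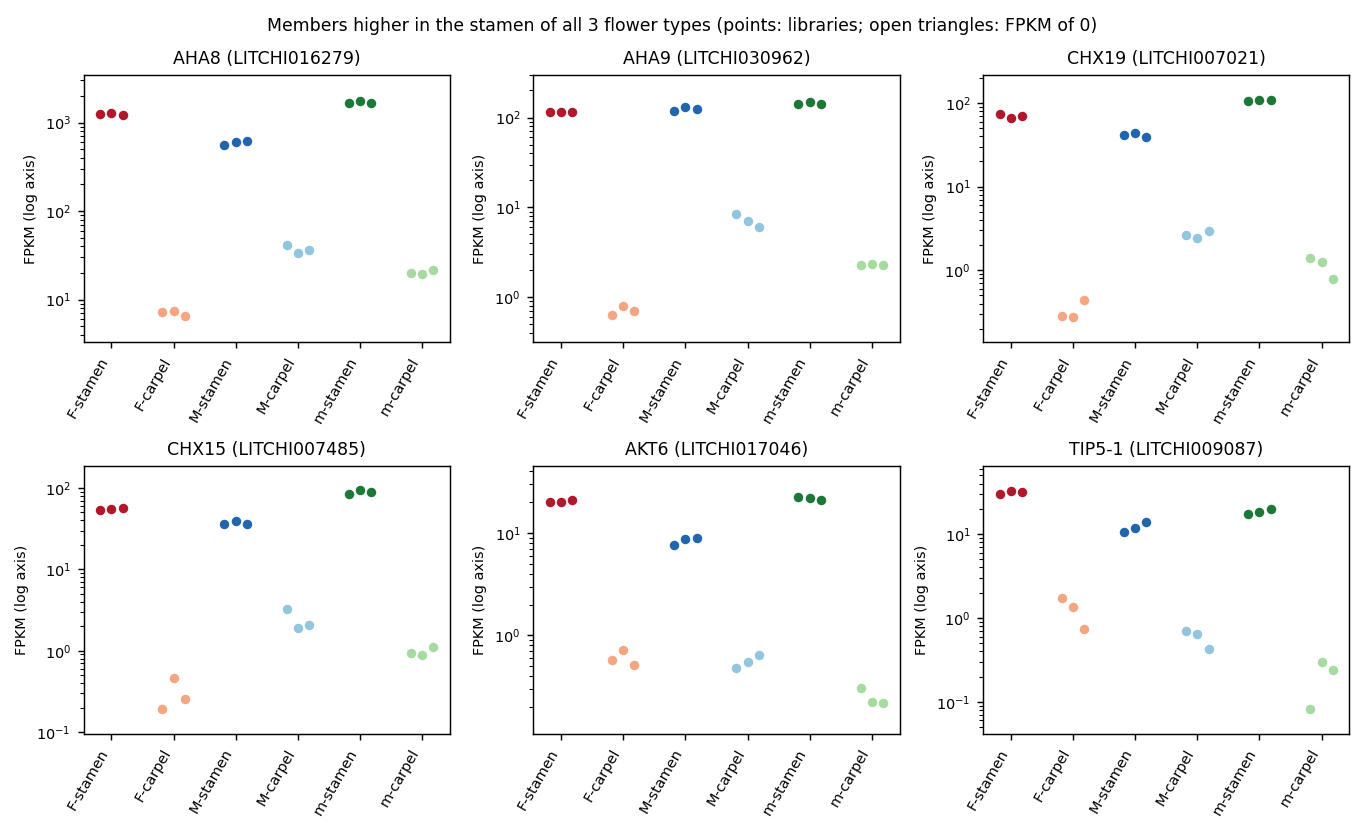
FPKM of AHA8, AHA9, CHX19, CHX15, AKT6 and TIP5-1 in each of the 18 libraries by organ, on log axes, with each point 1 library. In every panel the stamen libraries lie above the carpel libraries of the same flower type.

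CHX antiporters were the class with the largest median difference between stamens and carpels. Many members of this large family are active in pollen in Arabidopsis, where CHX proteins regulate cation balance and pH inside cells. The most abundant was CHX19 (LITCHI007021). CHX19 had 73.9, 66.4 and 69.7 FPKM in F-stamen, against 0.284, 0.274 and 0.445 FPKM in F-carpel. Its values were 40.9, 44.4 and 39.7 FPKM in M-stamen, against 2.64, 2.42 and 2.98 FPKM in M-carpel. In m flowers, CHX19 had 104, 109.5 and 108 FPKM in m-stamen, against 1.4, 1.25 and 0.776 FPKM in m-carpel. All 9 stamen libraries were above 39 FPKM and all 9 carpel libraries under 3 FPKM. The log2 fold change was 7.80 ± 0.16 (SE, edgeR FDR 3.73e-17) in F, 4.0 ± 0.13 (SE, edgeR FDR 2.13e-14) in M and 6.78 ± 0.14 (SE, edgeR FDR 3.54e-17) in m flowers.

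The second in level was CHX15 at LITCHI007485, 1 of 11 loci with that name. CHX15 had 53.0, 55.9 and 56.0 FPKM in F-stamen, against 0.191, 0.464 and 0.258 FPKM in F-carpel. Its values were 36.6, 39.5 and 36.2 FPKM in M-stamen, against 3.28, 1.89 and 2.10 FPKM in M-carpel. In m flowers, CHX15 had 83.4, 93.6 and 89.8 FPKM in m-stamen, against 0.933, 0.897 and 1.10 FPKM in m-carpel. It divided the organs like CHX19, with log2 fold changes of 7.61, 4.0 and 6.75 in the 3 flower types (edgeR FDR at most 5.09e-13). Of the other CHX15 loci, LITCHI027409 had no read in F-carpel. This locus had 8.34, 8.45 and 7.90 FPKM in F-stamen, against 0 FPKM in all 3 F-carpel libraries. Its values were 3.30, 2.92 and 3.75 FPKM in M-stamen, against 0.269, 0.209 and 0.351 FPKM in M-carpel. In m flowers, this locus had 15.6, 14.6 and 18 FPKM in m-stamen, against 0.0623, 0.177 and 0.220 FPKM in m-carpel. F-stamen was at least 432-fold higher than F-carpel (3 reads in each of the 3 libraries taken as the floor). The log2 fold change was 3.62 ± 0.24 (SE, edgeR FDR 2.64e-09) in M and 6.97 ± 0.26 (SE, edgeR FDR 1.49e-12) in m flowers.

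CHX15 at LITCHI027418 was highest in m-stamen, and there it reached at least 5 FPKM and at least 4 times every other organ. LITCHI027418 had 3.84, 3.33 and 2.79 FPKM in F-stamen, against 0, 0.0449 and 0 FPKM in F-carpel. Its values were 2.16, 0.899 and 1.30 FPKM in M-stamen, against 0.252, 0.280 and 0.407 FPKM in M-carpel. In m flowers, LITCHI027418 had 16.6, 15.6 and 14.1 FPKM in m-stamen, against 0.276, 0.191 and 0.293 FPKM in m-carpel. The m-stamen libraries were at 14.1 to 16.6 FPKM and no other library passed 3.84 FPKM, and M-stamen minus m-stamen was -3.70 ± 0.30 (SE, edgeR FDR 2.12e-08). A further CHX15 locus, LITCHI024625, was weak. LITCHI024625 had 0.453, 0.212 and 0.209 FPKM in F-stamen, against 0, 0.0397 and 0.0101 FPKM in F-carpel. Its values were 0.129, 0.126 and 0.147 FPKM in M-stamen, against 0 FPKM in all 3 M-carpel libraries. In m flowers, LITCHI024625 had 1.16, 0.960 and 1.21 FPKM in m-stamen, against 0.00964, 0.010 and 0.0562 FPKM in m-carpel. M-carpel had no read, so M-stamen was at least 7.75-fold higher than M-carpel, and m-stamen was the only organ above 0.9 FPKM in every library.

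CHX27 (LITCHI021607) and CHX24 (LITCHI025222) had the same division at lower levels. CHX27 had 6.31, 6.29 and 6.53 FPKM in F-stamen, against 0 FPKM in all 3 F-carpel libraries. Its values were 3.32, 4.42 and 4.14 FPKM in M-stamen, against 0.309, 0.215 and 0.332 FPKM in M-carpel. In m flowers, CHX27 had 13.9, 13.9 and 14.5 FPKM in m-stamen, against 0.114, 0 and 0.215 FPKM in m-carpel. F-stamen was at least 182-fold higher than F-carpel, where no read was counted, and the difference was 7.24 ± 0.41 (SE, edgeR FDR 2.65e-10) in m flowers. CHX24 had 7.83, 8.20 and 9.22 FPKM in F-stamen, against 0.112, 0.0787 and 0.238 FPKM in F-carpel. Its values were 6.50, 7.14 and 9.74 FPKM in M-stamen, against 0.490, 0.502 and 0.581 FPKM in M-carpel. In m flowers, CHX24 had 12.8, 17.8 and 15.7 FPKM in m-stamen, against 0, 0 and 0.128 FPKM in m-carpel. The m-carpel libraries held 3 reads in all, and m-stamen was 393-fold (95% counting interval 134 to 1909.5) higher. CHX4 (LITCHI030502) was found mainly in F-stamen and m-stamen. CHX4 had 1.69, 1.30 and 1.12 FPKM in F-stamen, against 0 FPKM in all 3 F-carpel libraries. Its values were 0, 0.0533 and 0.165 FPKM in M-stamen, against 0 FPKM in all 3 M-carpel libraries. In m flowers, CHX4 had 2.58, 3.40 and 1.91 FPKM in m-stamen, against 0.0237, 0.0727 and 0.109 FPKM in m-carpel. M-stamen was low in all 3 libraries, and M-stamen minus m-stamen was -5.27 ± 0.68 (SE, edgeR FDR 2.58e-05). CHX4 was also called higher in M-stamen than in M-carpel, and so counts among the 34 members. That call rests on 19 reads, libraries of the 2 organs overlapped, and the bound of at least 1.89-fold is under the 2-fold of the call.

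CHX18 (LITCHI022002) was higher in the carpels of male flowers. CHX18 had 5.89, 5.97 and 5.86 FPKM in F-stamen, against 0.751, 0.753 and 0.698 FPKM in F-carpel. Its values were 3.21, 2.97 and 3.58 FPKM in M-stamen, against 70.5, 61.1 and 66.3 FPKM in M-carpel. In m flowers, CHX18 had 2.99, 3.38 and 2.89 FPKM in m-stamen, against 39.0, 39.1 and 37.7 FPKM in m-carpel. Its M-carpel and m-carpel libraries were above every other library, F-carpel was the lowest organ, and the direction between organs differed: stamen over carpel was 3.13 ± 0.08 (SE, edgeR FDR 2.73e-16) in F, but -4.29 ± 0.07 (SE, edgeR FDR 1.23e-17) in M and -3.40 ± 0.07 (SE, edgeR FDR 2.49e-17) in m flowers. F-carpel minus M-carpel was -6.67 ± 0.08 (SE, edgeR FDR 1.6e-19). The other CHX18 locus, LITCHI022003, was also called lower in m-stamen (2.98 ± 0.422 FPKM) than in m-carpel (7.43 ± 1.14 FPKM), at -1.07 ± 0.12 (SE, edgeR FDR 3.61e-07), while M-stamen minus M-carpel was -0.61 ± 0.12 (SE, edgeR FDR 0.000251), which was under the fold of the call. CHX15 at LITCHI020780 had 9.05 ± 0.0636 FPKM in M-stamen against 14 ± 1.39 in the M-carpel libraries. Its m-stamen level was 11.1 ± 0.943 FPKM, against 18.4 ± 1.19 FPKM in m-carpel, and it was called in neither comparison. CHX20 (LITCHI018448), an endomembrane antiporter of guard cells in Arabidopsis, was mainly a gene of the male flowers. CHX20 had 1.19, 1.76 and 1.42 FPKM in F-stamen, against 0.779, 0.486 and 0.692 FPKM in F-carpel. Its values were 13, 12.5 and 10.7 FPKM in M-stamen, against 9.13, 7.83 and 9.08 FPKM in M-carpel. In m flowers, CHX20 had 7.21, 7.50 and 7.07 FPKM in m-stamen, against 2.27, 2.13 and 2.21 FPKM in m-carpel. F-stamen minus M-stamen was -3.16 ± 0.17 (SE, edgeR FDR 4.39e-11) and F-stamen minus m-stamen -2.67 ± 0.17 (SE, edgeR FDR 2.82e-10). Another CHX20 locus, LITCHI018447, had the same order of stamens, with 4.88 ± 0.0787, 18.1 ± 1.21 and 12 ± 0.973 FPKM in the F, M and m stamens. The remaining CHX20 locus, LITCHI018446, did not have this order. It had 6.27, 5.58 and 7.06 FPKM in F-stamen, 5.98, 5.36 and 6.4 FPKM in M-stamen and 6.91, 6.98 and 7.73 FPKM in m-stamen.

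Over the 30 tested CHX members, 25, 18 and 25 (83.3%, 60% and 83.3%) were called higher in F, M and m stamens. The shares of all loci were 21.4%, 15.7% and 23.6%. In M-stamen 1 (3.33%) and in m-stamen 2 (6.67%) were called lower, against 11% and 17.7% of all loci. The median log2 fold changes were 7.02, 3.85 and 6.30, or 4.80, 2.58 and 5.86 with loci at 0 reads put at their bound, against 0.08, 0.01 and 0.00 over all loci. Between the stamens, 18 CHX members (60%) were called lower in F-stamen than in m-stamen, against 10% of all loci. In M-stamen, 17 (56.7%) were called lower than in m-stamen, against 7.3% of all loci. The m-stamen was the organ with the highest mean level for 22 of the 30. Between F-stamen and M-stamen, 4 (13.3%) were called higher and 2 (6.67%) lower in F-stamen, near the 10.6% and 8.1% of all loci.

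Carpels differed in the same class. F-carpel had 18 CHX members (60%) called lower than M-carpel and 15 (50%) called lower than m-carpel, against 16.4% and 17.7% of all loci. M-carpel had 9 (30%) called higher than m-carpel, against 9.95% of all loci. Pollen and anther marker loci did not share 1 order of carpels. The LAT52 locus LITCHI013059 had 6.30, 34.7 and 12.9 FPKM in the F, M and m carpels. Another LAT52 locus, LITCHI008126, had 10.9, 8.85 and 9.26 FPKM there, and the C13 locus had 317, 161 and 46.7 FPKM. Over the 34 members called higher in every stamen, the carpel level as a percent of the stamen level had a median of 0.619% in F, 6.45% in M and 1.28% in m flowers. These members were chosen by the same difference, so their low percents follow in part from the choice. For the 8 pollen and anther marker loci the medians were 0.590%, 7.21% and 1.31%. AHA8 stood at 0.570%, 6.25% and 1.20%, CHX19 at 0.478%, 6.43% and 1.06%, and the LAT52 pollen protein locus LITCHI013059 at 0.485%, 5.32% and 0.934%. Of the 18 CHX members lower in F-carpel than in M-carpel, 13 had an M-carpel level under 10% of M-stamen, and of the 15 lower in F-carpel than in m-carpel, 11 had an m-carpel level under 10% of m-stamen. The summed level of the 8 markers was 335 to 358 FPKM in F-carpel, 229.9 to 246 in M-carpel and 87.9 to 101 in m-carpel, most of it from the C13 locus, and 1 LAT52 locus (LITCHI008127) was at 0 in all carpels. The part that stamen or pollen RNA had in the carpel differences was not tested.

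**Figure D4:**
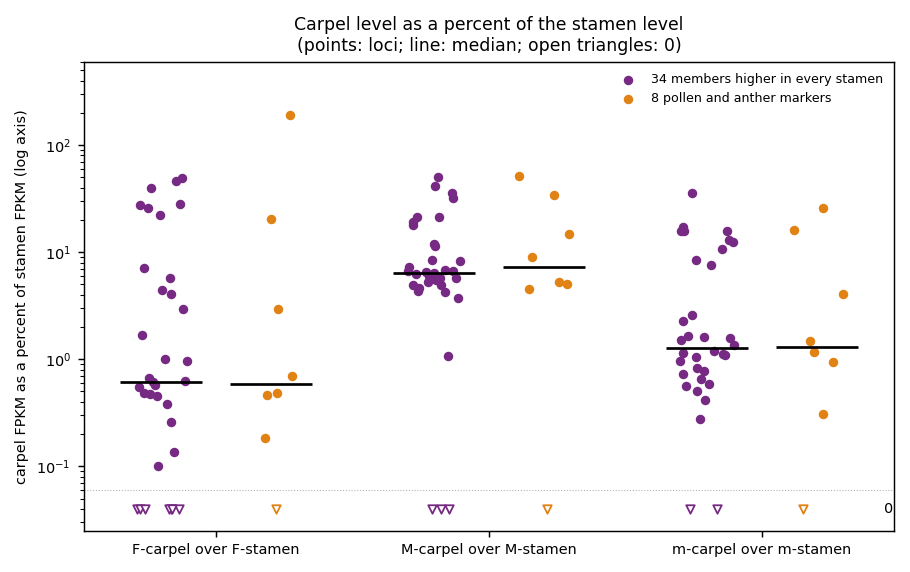
Mean carpel FPKM as a percent of mean stamen FPKM, on a log axis, for the 34 members called higher in the stamen of every flower type and for 8 pollen and anther marker loci, in F, M and m flowers (points are loci, lines are medians, open triangles are 0). The medians of members and markers are 0.619% and 0.590% in F, 6.45% and 7.21% in M, and 1.28% and 1.31% in m flowers. The members were chosen by this difference, so their low percents follow in part from the choice.

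Potassium channels held both stamen genes and carpel genes. The most abundant was a beta subunit of voltage-gated potassium channels (KAB, LITCHI015118), which binds the pore-forming proteins. KAB had 63.2, 62.9 and 61.9 FPKM in F-stamen, against 108, 115 and 103 FPKM in F-carpel. Its values were 66.7, 68.2 and 75.4 FPKM in M-stamen, against 37.3, 38.4 and 35.2 FPKM in M-carpel. In m flowers, KAB had 46.1, 47.5 and 43.7 FPKM in m-stamen, against 20.9, 25 and 24.7 FPKM in m-carpel. F-carpel was the highest organ, and every F-carpel library exceeded all 15 others. F-carpel minus M-carpel was 1.36 ± 0.08 (SE, edgeR FDR 6.54e-11) and F-carpel minus m-carpel 1.96 ± 0.08 (SE, edgeR FDR 3.87e-13), while stamen over carpel was called in m flowers only (1.21 ± 0.08 SE, edgeR FDR 3.07e-10). GORK (LITCHI005274), the channel that releases potassium from guard cells in Arabidopsis, was next in level. GORK had 18.5, 18.5 and 15.4 FPKM in F-stamen, against 17.7, 17.7 and 17.4 FPKM in F-carpel. Its values were 9.66, 7.95 and 9.77 FPKM in M-stamen, against 13.8, 14.7 and 13.9 FPKM in M-carpel. In m flowers, GORK had 9.53, 10 and 9.90 FPKM in m-stamen, against 9.31, 11.1 and 10.1 FPKM in m-carpel. All 18 values lay between 7.95 and 18.5 FPKM, the 2 organs of F flowers were the highest, and no comparison was called for this gene.

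AKT6 (LITCHI017046), called SPIK in Arabidopsis, is an inward channel of pollen there. It had 20.4 ± 0.522, 8.42 ± 0.710 and 21.9 ± 0.935 FPKM in the F, M and m stamens, against 0.605 ± 0.106, 0.556 ± 0.0820 and 0.250 ± 0.0493 FPKM in the carpels. Stamens and carpels did not overlap, and the log2 fold changes were 5.19 ± 0.13 (SE, edgeR FDR 7.02e-16), 3.95 ± 0.13 (SE, edgeR FDR 5.39e-14) and 6.67 ± 0.15 (SE, edgeR FDR 7.87e-17). The outward channel SKOR, which loads potassium into the xylem of Arabidopsis roots, was different at LITCHI023008: 16 ± 0.194 FPKM in F-stamen, 0.327 ± 0.144 in F-carpel, 9.39 ± 0.488 in M-stamen, 7.41 ± 0.357 in M-carpel, 16.2 ± 0.561 in m-stamen and 6.16 ± 0.742 in m-carpel. F-carpel was the lowest organ and was called lower than both other carpels (-4.68 ± 0.19 SE, edgeR FDR 3.38e-13 against M-carpel). Stamen over carpel was 5.72 in F flowers, but 0.38 ± 0.14 (SE, edgeR FDR 0.0263) in M flowers, which was not called, and the difference between these organ differences was 5.33 ± 0.23 (SE, edgeR FDR 2.24e-12).

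AKT1 proteins are inward channels that take up potassium, in Arabidopsis mainly in roots. The locus LITCHI027388 had appreciable reads in 1 organ only. AKT1 had 0.0873, 0.171 and 0.0718 FPKM in F-stamen, against 6.16, 6.86 and 5.96 FPKM in F-carpel. Its values were 0.187, 0.0611 and 0.0849 FPKM in M-stamen, against 0 FPKM in all 3 M-carpel libraries. In m flowers, AKT1 had 0.164, 0.0793 and 0.0688 FPKM in m-stamen, against 0.0272, 0 and 0 FPKM in m-carpel. The F-carpel libraries were at 5.96 to 6.86 FPKM and the highest of the other 15 was at 0.187 FPKM. F-carpel was at least 129.5-fold higher than M-carpel, which had no read, and 436-fold (95% counting interval 149 to 2118) higher than m-carpel, which had 3 reads. F-stamen minus F-carpel was -5.64 ± 0.53 (SE, edgeR FDR 1.3e-07). Another AKT1 locus, LITCHI016676, was a gene of all carpels. It had 1.56, 1.04 and 1.31 FPKM in F-stamen, against 3.34, 3.93 and 3.92 FPKM in F-carpel. Its values were 0.595, 0.453 and 0.726 FPKM in M-stamen, against 4.82, 4.32 and 4.67 FPKM in M-carpel. In m flowers, it had 0.540, 0.392 and 0.327 FPKM in m-stamen, against 6.13, 5.16 and 5.40 FPKM in m-carpel. Every carpel library lay above every stamen library. The log2 fold change was -1.39 ± 0.19 (SE, edgeR FDR 3.92e-06) in F, -2.90 ± 0.20 (SE, edgeR FDR 9.95e-10) in M and -3.47 ± 0.21 (SE, edgeR FDR 7.05e-11) in m flowers, and F-stamen exceeded the other stamens (1.02 ± 0.20 SE, edgeR FDR 0.000344 over M-stamen).

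Other channels varied between flower types. KAT1 (LITCHI028812), an inward channel of guard cells in Arabidopsis, had 7.57 ± 0.259 FPKM in F-carpel against 1.5 ± 0.326 in M-carpel and 1.94 ± 0.155 in m-carpel. TPK3 (LITCHI028874), a tandem-pore channel, was highest in F-stamen (11.2 ± 0.963 FPKM) and M-stamen (8.03 ± 0.129 FPKM), against 2.93 ± 0.316 FPKM in m-stamen. The AKT2 channel at LITCHI020713, a type known from the phloem, was lowest among stamens in M-stamen, with 4.30 ± 0.458, 1.02 ± 0.168 and 3.71 ± 0.518 FPKM in the F, M and m stamens. AKT5 (LITCHI003382), a pollen channel in Arabidopsis, had reads in F flowers only, at 0.309 ± 0.162 FPKM in F-stamen and 0.0389 ± 0.0353 in F-carpel. Of 25 tested channels, 9, 8 and 11 were called higher and 4, 1 and 3 lower in F, M and m stamens, with median log2 fold changes of 0.46, 0.38 and 0.74. These are 36%, 32% and 44% higher and 16%, 4% and 12% lower, against 21.4%, 15.7% and 23.6% higher and 15.6%, 11% and 17.7% lower over all loci, and the lower calls were thus near or under the share of all loci.

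The potassium transporters were led by a gene of the male flowers. POT13 (LITCHI009724) matches a rice transporter of the family that couples potassium uptake to protons. POT13 had 12, 11.7 and 11.6 FPKM in F-stamen, against 2.87, 2.03 and 3.02 FPKM in F-carpel. Its values were 323, 345 and 331 FPKM in M-stamen, against 40.6, 38.8 and 39.2 FPKM in M-carpel. In m flowers, POT13 had 109, 107 and 115 FPKM in m-stamen, against 17.5, 18.9 and 15.1 FPKM in m-carpel. M-stamen was the highest organ, m-stamen followed, and in both organs of F flowers the gene was below every library of the same organ in male flowers. The F-stamen level differed from M-stamen by -4.93 ± 0.10 (SE, edgeR FDR 1.84e-16) and from m-stamen by -3.59 ± 0.09 (SE, edgeR FDR 2.37e-15). In the carpels, F-carpel minus M-carpel was -4.10 ± 0.10 (SE, edgeR FDR 3.15e-16), and stamens exceeded carpels in all 3 flower types (2.28, 3.12 and 2.93). The other POT13 locus, LITCHI028567, was not a gene of the male flowers. It was highest in F-carpel, at 6.51, 7.25 and 6.1 FPKM, and no library of another organ passed 1.87 FPKM.

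POT4 (LITCHI020859), which matches an Arabidopsis transporter, was second in level. POT4 had 39.9, 47.1 and 39.9 FPKM in F-stamen, against 17.5, 15.7 and 17.2 FPKM in F-carpel. Its values were 65.8, 57.0 and 62.7 FPKM in M-stamen, against 56.6, 49.4 and 52.2 FPKM in M-carpel. In m flowers, POT4 had 39.4, 51.4 and 42.5 FPKM in m-stamen, against 70.8, 72.8 and 65.7 FPKM in m-carpel. F-carpel was below all other organs, with F-carpel minus M-carpel at -1.84 ± 0.09 (SE, edgeR FDR 5.83e-12) and F-carpel minus m-carpel at -2.30 ± 0.09 (SE, edgeR FDR 2.29e-13). The other POT4 locus, LITCHI020860, had the same order of carpels, with 2.64 ± 0.378, 14.3 ± 1.26 and 26.0 ± 2.33 FPKM in the F, M and m carpels. POT2 at LITCHI027472 went the other way in F flowers, at 15.8 ± 0.861 FPKM in F-stamen against 46.6 ± 1.76 in F-carpel, and 45.0 ± 1.88 FPKM in m-stamen against 19.8 ± 0.292 in m-carpel.

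Loci named POT5, after a high-affinity transporter of Arabidopsis or rice, fell into separate patterns. LITCHI004480 was a stamen gene with most reads in F flowers. This POT5 had 5.37, 6.26 and 5.62 FPKM in F-stamen, against 0, 0.0867 and 0.0215 FPKM in F-carpel. Its values were 0.895, 1.18 and 1.34 FPKM in M-stamen, against 0.0495, 0.147 and 0.0932 FPKM in M-carpel. In m flowers, this POT5 had 0.518, 0.60 and 1.13 FPKM in m-stamen, against 0.0210, 0.128 and 0.0925 FPKM in m-carpel. F-stamen exceeded every other library, and F-stamen minus M-stamen was 2.21 ± 0.44 (SE, edgeR FDR 0.000368). LITCHI021696 stood out in M-carpel. That POT5 had 4.61, 5.11 and 4.61 FPKM in F-stamen, against 3.80, 3.90 and 3.54 FPKM in F-carpel. Its values were 4.61, 5.05 and 6.47 FPKM in M-stamen, against 25, 25.1 and 24.0 FPKM in M-carpel. In m flowers, that POT5 had 2.25, 3.87 and 3.37 FPKM in m-stamen, against 5.54, 6.85 and 5.95 FPKM in m-carpel. The M-carpel libraries were at 24.0 to 25.1 FPKM and no other library passed 6.85 FPKM, and M-carpel minus m-carpel was 1.96 ± 0.16 (SE, edgeR FDR 1.24e-08). The locus LITCHI026395 was likewise highest in M-carpel (7.52 ± 0.876 FPKM), against 3.78 ± 0.113 FPKM in m-carpel and 1.92 ± 0.168 FPKM in F-carpel.

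A further POT5 locus, LITCHI021694, was lowest in M-carpel. LITCHI021694 had 2.01, 2.26 and 2.2 FPKM in F-stamen, against 2.60, 2.86 and 2.91 FPKM in F-carpel. Its values were 0.628, 0.414 and 0.757 FPKM in M-stamen, against 0.0521, 0.0766 and 0.0687 FPKM in M-carpel. In m flowers, LITCHI021694 had 3.06, 4.01 and 4.14 FPKM in m-stamen, against 0.139, 0.207 and 0.307 FPKM in m-carpel. The m-stamen and F-carpel libraries were the highest, and F-carpel minus M-carpel was 5.11 ± 0.36 (SE, edgeR FDR 1.08e-09). M-carpel minus m-carpel (-1.79 ± 0.42 SE, edgeR FDR 0.00185) was lost without M-carpel replicate 1 or m-carpel replicate 3. POT11 (LITCHI028322) was lowest in m-carpel. POT11 had 4.13, 4.69 and 3.45 FPKM in F-stamen, against 1.41, 1.20 and 0.743 FPKM in F-carpel. Its values were 2.54, 2.70 and 2.95 FPKM in M-stamen, against 0.199, 0.182 and 0.541 FPKM in M-carpel. In m flowers, POT11 had 2.49, 3.63 and 3.36 FPKM in m-stamen, against 0, 0 and 0.0394 FPKM in m-carpel. m-stamen was 175-fold (95% counting interval 59.7 to 853) higher than m-carpel, which had 3 reads, and F-carpel was 61.8-fold (95% counting interval 20.8 to 302) higher than m-carpel. Of 26 tested transporters, 7, 6 and 10 were called higher and 5, 4 and 3 lower in F, M and m stamens, with median log2 fold changes of 0.41, 0.34 and 0.16 (0.26 in M flowers with loci at 0 reads put at their bound). The shares called higher were 26.9%, 23.1% and 38.5%, against 21.4%, 15.7% and 23.6% of all loci, and the shares called lower were 19.2%, 15.4% and 11.5%, against 15.6%, 11% and 17.7%. In F flowers both shares were near those of all loci.

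**Figure D5:**
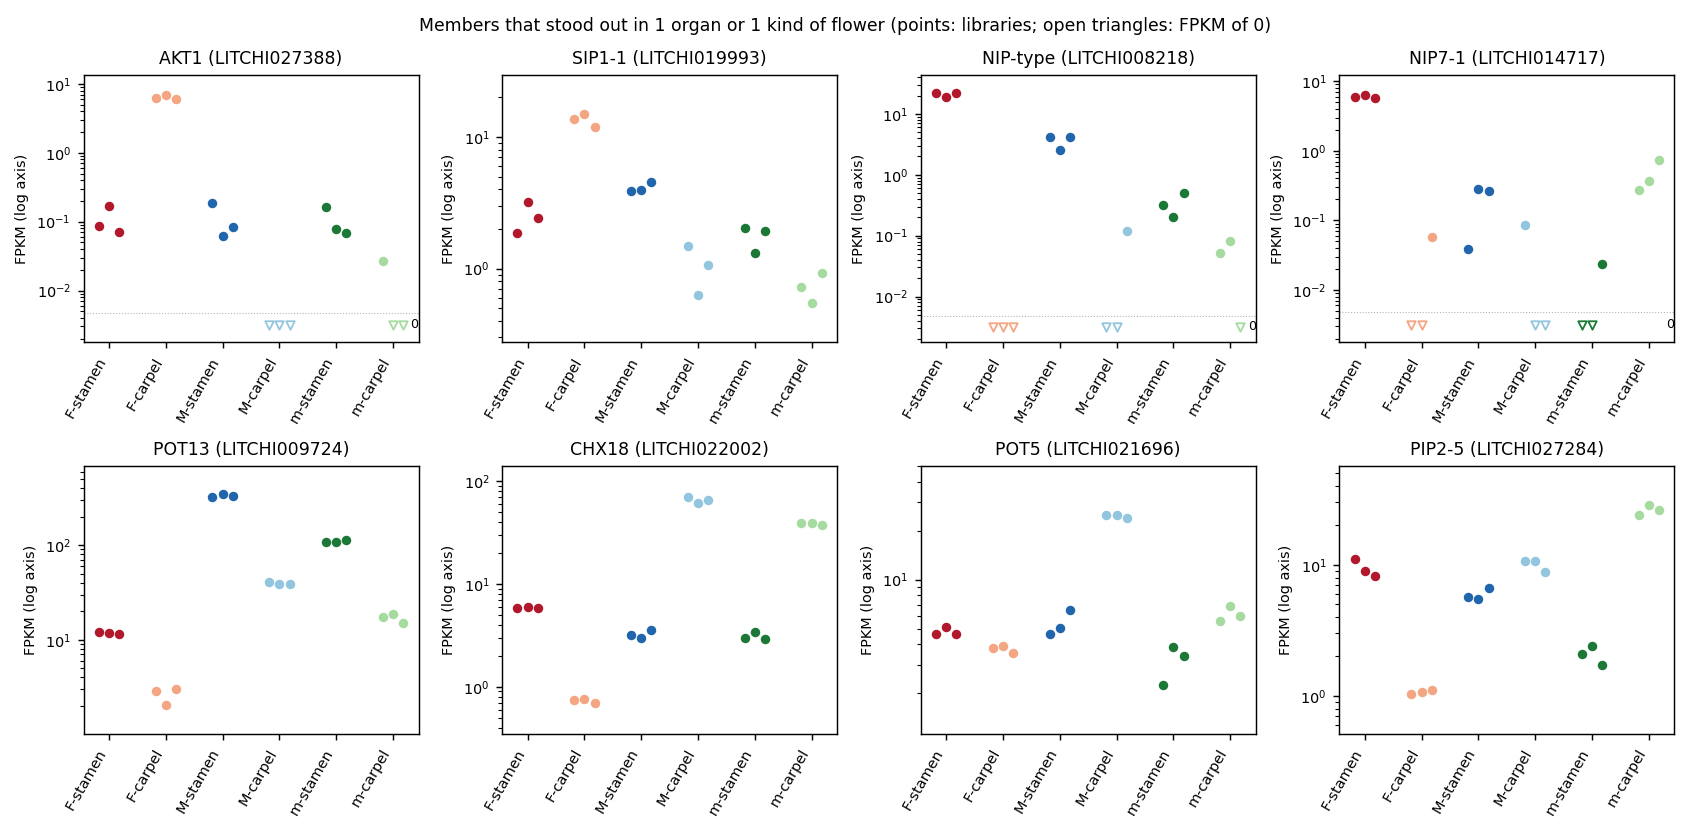
FPKM of 8 members in each of the 18 libraries by organ, on log axes, with each point 1 library and open triangles for 0. AKT1 and SIP1-1 are highest in F-carpel, the NIP-type aquaporin and NIP7-1 in F-stamen, POT13 in M-stamen, CHX18 and POT5 in M-carpel and PIP2-5 in m-carpel.

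PIP aquaporins were abundant in all organs, and their direction depended on the flower type. PIP1-2 (LITCHI022094) was the most abundant. PIP1-2 had 261, 265 and 253 FPKM in F-stamen, against 380.4, 409 and 363 FPKM in F-carpel. Its values were 431, 436 and 444 FPKM in M-stamen, against 171, 155 and 170.2 FPKM in M-carpel. In m flowers, PIP1-2 had 465, 467 and 492 FPKM in m-stamen, against 456, 459 and 457 FPKM in m-carpel. M-carpel was the lowest organ and the m flowers the highest, with no called organ difference in F (-0.44) or m flowers (0.30). In M flowers stamen over carpel was 1.45 ± 0.05 (SE, edgeR FDR 4.94e-14), and M-carpel minus m-carpel was -1.52 ± 0.05 (SE, edgeR FDR 7.09e-14). PIP2-5 at LITCHI027285 was next. It had 263, 268 and 264 FPKM in F-stamen, against 204, 214 and 189 FPKM in F-carpel. Its values were 405, 376 and 407 FPKM in M-stamen, against 247, 233 and 244 FPKM in M-carpel. In m flowers, it had 454, 459.5 and 459 FPKM in m-stamen, against 248, 258 and 266 FPKM in m-carpel. Here each stamen was above its carpel, but only m flowers passed the minimum fold change (1.08 ± 0.06 SE, edgeR FDR 7.96e-12).

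Another PIP2-5 locus, LITCHI027284, had a different order. LITCHI027284 had 11.0, 8.91 and 8.19 FPKM in F-stamen, against 1.03, 1.08 and 1.12 FPKM in F-carpel. Its values were 5.69, 5.46 and 6.63 FPKM in M-stamen, against 10.7, 10.6 and 8.85 FPKM in M-carpel. In m flowers, LITCHI027284 had 2.08, 2.42 and 1.71 FPKM in m-stamen, against 23.9, 28.4 and 26.2 FPKM in m-carpel. The m-carpel libraries were the highest and F-carpel the lowest, and stamen over carpel was 3.24 ± 0.15 (SE, edgeR FDR 2.77e-12) in F flowers against -3.41 ± 0.15 (SE, edgeR FDR 6.03e-13) in m flowers. F-carpel minus m-carpel was -4.84 ± 0.16 (SE, edgeR FDR 1.5e-14). PIP1-4 (LITCHI025728) shared this order. PIP1-4 had 6.21, 6.32 and 5.24 FPKM in F-stamen, against 2.03, 1.86 and 1.75 FPKM in F-carpel. Its values were 4.76, 3.72 and 3.13 FPKM in M-stamen, against 13.6, 12.7 and 13.2 FPKM in M-carpel. In m flowers, PIP1-4 had 1.41, 1.74 and 2.37 FPKM in m-stamen, against 23.8, 25.9 and 24.6 FPKM in m-carpel. Stamen over carpel was 1.78 ± 0.17 (SE, edgeR FDR 4.97e-08) in F, but -1.72 ± 0.16 (SE, edgeR FDR 6e-08) in M and -3.50 ± 0.17 (SE, edgeR FDR 5.41e-12) in m flowers, and F-carpel minus m-carpel was -3.95 ± 0.18 (SE, edgeR FDR 1.24e-12). Both loci were thus called in opposite directions in the female and the m flowers.

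PIP2-7 at LITCHI024675 was a carpel gene of F and m flowers. PIP2-7 had 11.1, 11.5 and 10.8 FPKM in F-stamen, against 29.6, 34.3 and 28.8 FPKM in F-carpel. Its values were 13.1, 13.1 and 12 FPKM in M-stamen, against 13.7, 12 and 13 FPKM in M-carpel. In m flowers, PIP2-7 had 3.66, 4.65 and 4.0 FPKM in m-stamen, against 25.1, 24.6 and 25.1 FPKM in m-carpel. In M flowers stamens and carpels overlapped (0.03 ± 0.08 SE, edgeR FDR 0.751), while F-stamen minus F-carpel was -1.34 ± 0.08 (SE, edgeR FDR 1.71e-10) and m-stamen minus m-carpel -2.36 ± 0.09 (SE, edgeR FDR 1.04e-13). PIP2-4 (LITCHI018583) was a gene of the male stamens, at 12.4 ± 0.769, 55.8 ± 3.06 and 47.1 ± 2.65 FPKM in the F, M and m stamens, against 17.3 ± 1.24, 12.4 ± 0.662 and 3.76 ± 0.389 FPKM in the carpels. F-stamen minus M-stamen was -2.28 ± 0.08 (SE, edgeR FDR 2.94e-13). PIP1-2 at LITCHI027537 was highest in m-carpel, at 299 ± 10.6 FPKM. Of 11 tested PIP members, 2, 3 and 2 were called higher and 2, 1 and 4 lower in F, M and m stamens. Median log2 fold changes were -0.35, 0.27 and -1.5 (-0.82 in m flowers with loci at 0 reads put at their bound). The shares called higher were 18.2%, 27.3% and 18.2%, against 21.4%, 15.7% and 23.6% of all loci, and the shares called lower were 18.2%, 9.09% and 36.4%, against 15.6%, 11% and 17.7%.

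Most TIP aquaporins were lower in the male carpels than in the male stamens. TIP1-1 (LITCHI018676), an aquaporin of the vacuole membrane, led the class. TIP1-1 had 207, 208 and 201 FPKM in F-stamen, against 160.2, 193 and 174 FPKM in F-carpel. Its values were 363, 333 and 346 FPKM in M-stamen, against 96.7, 85.9 and 93.5 FPKM in M-carpel. In m flowers, TIP1-1 had 280.5, 276 and 286 FPKM in m-stamen, against 36.7, 41.2 and 42.1 FPKM in m-carpel. M-carpel and m-carpel were under every other library. In M flowers stamen over carpel was 1.97 ± 0.07 (SE, edgeR FDR 1.88e-13) and in m flowers 3.06 ± 0.08 (SE, edgeR FDR 3.06e-16), while in F flowers it was 0.35, and the organ difference in F minus that in m was -2.71 ± 0.10 (SE, edgeR FDR 1.51e-13). TIP2-1 (LITCHI030525) was next. TIP2-1 had 102, 114 and 105 FPKM in F-stamen, against 209.6, 237 and 222 FPKM in F-carpel. Its values were 292, 294 and 307 FPKM in M-stamen, against 183, 170.5 and 163 FPKM in M-carpel. In m flowers, TIP2-1 had 214, 207 and 206 FPKM in m-stamen, against 111, 119.8 and 119 FPKM in m-carpel. In F flowers the carpel was higher and in M and m flowers the stamen, but only the m flowers passed the minimum fold change (-0.93, 0.84 and 1.09, edgeR FDR at most 1.2e-09), and F-stamen minus M-stamen was -1.59 ± 0.06 (SE, edgeR FDR 4.54e-13).

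TIP1-3 and TIP5-1 are the TIP aquaporins of pollen in Arabidopsis. TIP5-1 (LITCHI009087) was called higher in every stamen, at 31.3 ± 1.33, 12.1 ± 1.77 and 18.6 ± 1.17 FPKM in the F, M and m stamens, against 1.28 ± 0.501, 0.592 ± 0.147 and 0.208 ± 0.113 FPKM in the carpels. TIP1-3 (LITCHI027788) was not restricted to stamens. It had 136 ± 49.1 FPKM in F-stamen and 136 ± 2.72 FPKM in F-carpel, with a log2 fold change of 0.13 ± 0.33 (SE, edgeR FDR 0.737), but 118 ± 55.5 FPKM in M-stamen against 13.9 ± 4.97 FPKM in M-carpel. Libraries of F-stamen and of M-stamen spread widely for this gene.

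TIP3-1 (LITCHI001953), of a subgroup known from seeds, was highest in F-carpel. TIP3-1 had 2.61, 2.63 and 1.94 FPKM in F-stamen, against 17.7, 17.9 and 15.5 FPKM in F-carpel. Its values were 7.97, 7.13 and 6.80 FPKM in M-stamen, against 3.21, 2.43 and 2.14 FPKM in M-carpel. In m flowers, TIP3-1 had 3.57, 3.11 and 2.99 FPKM in m-stamen, against 0.916, 0.611 and 0.922 FPKM in m-carpel. Every F-carpel library was above the others, and the direction between organs differed: stamen over carpel was -2.70 ± 0.17 (SE, edgeR FDR 1.82e-10) in F, but 1.54 ± 0.17 (SE, edgeR FDR 3.34e-07) in M and 2.23 ± 0.18 (SE, edgeR FDR 5.25e-09) in m flowers. F-carpel minus m-carpel was 4.14 ± 0.19 (SE, edgeR FDR 1.42e-12). TIP4-1 (LITCHI017169) was also highest in F-carpel, at 27.2 ± 2.65 FPKM against 6.80 ± 0.364 in M-carpel. Of 8 tested TIP members, 1, 5 and 6 were called higher in F, M and m stamens, 2 were called lower in F-stamen, and 5 were called higher in F-carpel than in m-carpel. The shares called higher in stamen were 12.5%, 62.5% and 75.0%, against 21.4%, 15.7% and 23.6% of all loci. The share called lower in F-stamen was 25%, against 15.6% of all loci. For F-carpel over m-carpel the share called higher was 62.5%, against 20.6% of all loci. Median log2 fold changes of stamen over carpel were 0.24, 1.37 and 1.82.

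The NIP and SIP aquaporins were low in level, and several were found mainly in 1 organ. NIP1-2 (LITCHI028955) had the highest mean. NIP1-2 had 17.0, 18.8 and 16.3 FPKM in F-stamen, against 21.1, 27.2 and 20.7 FPKM in F-carpel. Its values were 11.1, 10.6 and 10.9 FPKM in M-stamen, against 8.42, 9.25 and 7.14 FPKM in M-carpel. In m flowers, NIP1-2 had 5.65, 6.49 and 5.10 FPKM in m-stamen, against 3.66, 3.43 and 4.61 FPKM in m-carpel. F-carpel and F-stamen were above the organs of male flowers, and F-carpel minus m-carpel was 2.32 ± 0.16 (SE, edgeR FDR 3.66e-10). NIP5-1 (LITCHI020024), a boric acid channel in Arabidopsis, was next. NIP5-1 had 7.79, 7.43 and 7.63 FPKM in F-stamen, against 2.95, 4.62 and 3.64 FPKM in F-carpel. Its values were 15.8, 13.6 and 14 FPKM in M-stamen, against 7.91, 6.93 and 7.21 FPKM in M-carpel. In m flowers, NIP5-1 had 23.7, 25.6 and 24.8 FPKM in m-stamen, against 3.23, 3.63 and 4.82 FPKM in m-carpel. All stamens were called higher than their carpels (1.33, 1.04 and 3.0), and the m-stamen libraries were the highest, with F-stamen minus m-stamen at -2.07 ± 0.13 (SE, edgeR FDR 2.02e-10).

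A locus named after a pollen aquaporin of Nicotiana alata (NIP-type, LITCHI008218) was found mainly in F-stamen. This locus had 22.2, 19.3 and 22 FPKM in F-stamen, against 0 FPKM in all 3 F-carpel libraries. Its values were 4.21, 2.57 and 4.16 FPKM in M-stamen, against 0, 0 and 0.119 FPKM in M-carpel. In m flowers, this locus had 0.322, 0.200 and 0.496 FPKM in m-stamen, against 0.0526, 0.0807 and 0 FPKM in m-carpel. F-stamen was above every other library, M-stamen was intermediate and m-stamen at most 0.496 FPKM. F-stamen was at least 264-fold higher than F-carpel, which had no read, and F-stamen minus m-stamen was 5.56 ± 0.45 (SE, edgeR FDR 3.89e-08). Other loci with the NIP-type name differed. LITCHI005762 had 1.02, 0 and 0 FPKM in F-stamen, 4.05, 4.44 and 2.12 FPKM in M-stamen and 3.72, 4.24 and 3.73 FPKM in m-stamen. LITCHI008541 was weak and highest in F-stamen, at 0.298, 0.309 and 0.471 FPKM. NIP7-1 (LITCHI014717), a boric acid channel of the Arabidopsis tapetum, was more restricted to F-stamen than LITCHI008218. NIP7-1 had 5.96, 6.22 and 5.73 FPKM in F-stamen, against 0, 0 and 0.0584 FPKM in F-carpel. Its values were 0.0383, 0.282 and 0.265 FPKM in M-stamen, against 0.0849, 0 and 0 FPKM in M-carpel. In m flowers, NIP7-1 had 0, 0 and 0.0232 FPKM in m-stamen, against 0.273, 0.363 and 0.725 FPKM in m-carpel. F-stamen exceeded every other library, and F-stamen was 492-fold (95% counting interval 136 to 4068) higher than m-stamen, which had 2 reads. The signal of m flowers was in the carpel, and M-carpel minus m-carpel was -3.71 ± 0.95 (SE, edgeR FDR 0.00383), a call lost without M-carpel replicate 2 or 3 or m-carpel replicate 3.

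NIP4-1 (LITCHI005761), a pollen aquaporin in Arabidopsis, was found in stamens. NIP4-1 had 2.16, 1.81 and 2.51 FPKM in F-stamen, against 0 FPKM in all 3 F-carpel libraries. Its values were 4.25, 3.77 and 4.93 FPKM in M-stamen, against 0.382, 0 and 0.106 FPKM in M-carpel. In m flowers, NIP4-1 had 6.09, 5.09 and 4.63 FPKM in m-stamen, against 0 FPKM in all 3 m-carpel libraries. F-carpel and m-carpel had no read, so F-stamen was at least 14.7-fold higher than F-carpel and m-stamen at least 34.5-fold higher than m-carpel. SIP1-1 (LITCHI019993), a small aquaporin of inner membranes, was highest in F-carpel. SIP1-1 had 1.85, 3.23 and 2.43 FPKM in F-stamen, against 13.7, 14.9 and 11.9 FPKM in F-carpel. Its values were 3.90, 3.97 and 4.57 FPKM in M-stamen, against 1.47, 0.633 and 1.07 FPKM in M-carpel. In m flowers, SIP1-1 had 2.02, 1.32 and 1.93 FPKM in m-stamen, against 0.719, 0.548 and 0.918 FPKM in m-carpel. Every F-carpel library was above the others, with F-stamen minus F-carpel at -2.30 ± 0.26 (SE, edgeR FDR 3.78e-07) but M-stamen minus M-carpel at 2.03 ± 0.27 (SE, edgeR FDR 4.15e-06). Of 13 tested NIP and SIP members, 7, 5 and 7 were called higher in F, M and m stamens and 2 and 1 lower in F-stamen and m-stamen, with median log2 fold changes of 1.38, 2.03 and 1.28 (1.33, 1.59 and 1.21 with loci at 0 reads put at their bound). The shares called higher were 53.8%, 38.5% and 53.8%, against 21.4%, 15.7% and 23.6% of all loci. The shares called lower in F-stamen and m-stamen were 15.4% and 7.69%, against 15.6% and 17.7% of all loci.

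Flower types were next compared within an organ. Between F-carpel and M-carpel, 21 members were called higher and 33 lower in F-carpel (54, or 39.7% of 136), against 32.7% of all loci (16.3% higher, 16.4% lower). Between F-carpel and m-carpel, 28 were called higher and 31 lower in F-carpel (59, or 43.4%), against 38.3% of all loci (20.6% higher, 17.7% lower). M-carpel had 23 called higher and 8 lower than m-carpel (31, or 22.8%), against 14.7% of all loci (9.95% higher, 4.8% lower). The direction of the carpel calls depended on how low values were treated: members called higher made up 38.9% of calls for F-carpel minus M-carpel and 47.5% for F-carpel minus m-carpel, but 55.3% and 71.4% with limma on log2(FPKM + 1) and 49.1% and 59.6% on log2(FPKM + 0.1). The CHX loci gave 18 of the 33 and 15 of the 31 lower calls. Of 11 PIP members, 4 were called higher and 2 lower in F-carpel than in M-carpel, and 1 higher and 3 lower than in m-carpel. Of 8 TIP members, 3 were called higher and 1 lower than in M-carpel, and 5 higher than in m-carpel. Potassium channels had 6 called higher and 3 lower than in M-carpel, and 7 higher and 4 lower than in m-carpel. Potassium transporters had 4 called higher and 5 lower than in M-carpel, and 7 higher and 6 lower than in m-carpel.

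In stamens, 19 members were called higher and 13 lower in F-stamen than in M-stamen (32, or 23.5%), against 18.7% of all loci (10.6% higher, 8.1% lower), whose median log2 fold change was 0.18 in this comparison. F-stamen had 17 called higher and 36 lower than m-stamen (53, or 39.0%), against 22.9% of all loci (12.9% higher, 10% lower). M-stamen had 6 called higher and 28 lower than m-stamen (34, or 25%), against 13.1% of all loci (5.84% higher, 7.3% lower). Members called higher were 59.4% of the calls for F-stamen minus M-stamen, 32.1% for F-stamen minus m-stamen and 17.6% for M-stamen minus m-stamen, against 70%, 53.5% and 33.3% with limma on log2(FPKM + 0.1). The CHX loci gave 18 of the 36 and 17 of the 28 lower calls.

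The organ difference itself was compared between flower types. The difference of F minus M was called for 62 members (35 higher, 27 lower), against 30% of all loci (16.2% higher, 13.7% lower), whose median was 0.14. The difference of F minus m was called for 55 (25 higher, 30 lower), against 34.3% (17.4% higher, 16.9% lower), and that of M minus m for 50 (12 higher, 38 lower), against 17.7% (6.76% higher, 11% lower). CHX antiporters gave 18 of the higher calls for F minus M and 18 of the lower calls for M minus m, beside the carpel levels relative to stamens given above. In F minus M, 5 of 11 PIP and 5 of 8 TIP members were called lower, and 2 PIP members higher. These comparisons share libraries and are not independent.

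Genes that act with these transporters were counted by the same test, which called 21.4%, 15.7% and 23.6% of all loci higher and 15.6%, 11% and 17.7% lower in F, M and m stamens. Of 33 tested loci for vacuolar proton pumps, which drive the vacuolar side of the same transport, 8, 9 and 11 (24.2%, 27.3% and 33.3%) were called higher in F, M and m stamens, and 2 each lower in F-stamen and m-stamen. The pyrophosphate-driven pump LITCHI017285 had 344 ± 16.5 FPKM in F-stamen against 221 ± 9.31 in F-carpel. Of 20 CBL-interacting protein kinases, which switch on potassium channels of the AKT type, 6, 2 and 4 (30.0%, 10% and 20%) were called higher, near the shares of all loci, and 2 each lower in M-stamen and m-stamen. CIPK20 (LITCHI029021) had 105 ± 2.95, 30.3 ± 1.52 and 166 ± 3.93 FPKM in the F, M and m stamens, against 0.615 ± 0.0578, 2.70 ± 0.548 and 2.02 ± 0.195 FPKM in the carpels. Of 10 tested calcineurin B-like proteins, the calcium sensors of these kinases, 3, 2 and 2 were called higher and 1, 1 and 2 lower. Of 9 14-3-3 proteins, which bind and activate plasma membrane H+-ATPases, 1, 2 and 3 were called higher and 1 lower in m-stamen, among them GF14 iota (LITCHI005298) at 74.8 ± 2.38 FPKM in F-stamen against 3.63 ± 0.466 FPKM in F-carpel. Of 7 potassium efflux antiporters 1 was called higher in F-stamen and 1 lower in m-stamen, and of 11 tested sodium/hydrogen exchangers 2, 4 and 2 higher and 3, 2 and 4 lower. The 1 HKT-type locus was too low to test.

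The 13 other ATPase-named loci differed less between organs in summed level than the H+-ATPases did. These 13 loci summed to 259.7 ± 5.56 FPKM in F-stamen, 237 ± 11.9 in F-carpel, 284 ± 4.42 in M-stamen, 208 ± 9.19 in M-carpel, 294 ± 4.82 in m-stamen and 219.5 ± 8.45 in m-carpel. All 13 were tested. Against 21.4%, 15.7% and 23.6% of all loci, 1, 2 and 5 (7.69%, 15.4% and 38.5%) were called higher in F, M and m stamens. FIGL1 at LITCHI009456 was among them in M and m flowers, at 46.9 ± 0.451 FPKM in m-stamen and 3.84 ± 0.485 in m-carpel. FIGL1 is known in Arabidopsis as an AAA protein that limits meiotic crossing over.

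The 32 members without a test were 7 CHX, 2 H+-ATPases, 3 potassium channels, 7 potassium transporters, 9 NIP or SIP, 1 PIP and 3 TIP loci. Their organ means were at most 0.815 FPKM, which at this depth sets an upper limit and does not show absence. With a floor of 3 counts, a member without reads in the smallest library could still have been present at 0.117 CPM, which covers counting error only.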

How the data were processed

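RNA from stamens and carpels of the F, M and m flowers was sequenced in 18 paired-end Illumina libraries, 3 per organ, with total counts of 25689398 to 32302522. The deposited table lists, for 37401 gene models, a read count and an FPKM value per library. The deposited counts are whole reads per model with no normalization, and the authors made the FPKM values per model. The study trimmed reads with Trimmomatic, removed ribosomal RNA reads and obtained FPKM with Cufflinks, while the submitters' processing notes name HISAT2 2.0.4 and StringTie. For the genome build, the counting program and its use of strand, nothing is given in the sources used. Columns with the authors' own fold changes and FDR values for 9 pairs of organs were not used. Groups came from the sample titles.

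Counts and FPKM were summed over the models of a locus, giving 34024 loci. All 18 libraries entered 1 model with 6 organ means in edgeR 4.0.16 (R 4.3.3), with TMM normalization, filterByExpr by organ, the quasi-likelihood F-test and Benjamini-Hochberg adjustment over the 24666 loci kept. Loci were called at an FDR under 0.01 when their log2 fold change was 1 or more in size. The steps were tested on simulated counts with changes planted in F-carpel only. Organs without reads beside highly expressed ones were not simulated. Fitted fold changes against an organ with no reads depend on edgeR's prior count. Such folds are given as bounds against a floor of 3 counts in each library of that organ. Organs with 1 to 3 counts over their 3 libraries are given as ratios with exact 95% counting intervals, which cover counting error only.

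Given with every library's value were the 2 members of highest mean FPKM in each class, the 2 called members with the largest positive and the 2 with the largest negative log2 fold change in each comparison (mean of at least 1 CPM), and members with 1 organ at 5 FPKM or more and at least 4 times each other organ. The largest called interaction values are named as well, and other members were named after their values were seen. The members and gene lists were chosen with earlier results of these data known.

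Alternatives were DESeq2 1.42.0, RLE size factors, other count filters, log2(FPKM + 1) or log2(FPKM + 0.1) in limma 3.58.1 (trend), fits of the compared organs only, unsummed models, a replicate block and each library left out. After the data were seen, fits without M flowers and with only the matching models summed were added. Replicate numbers did not pair the samples: deviations of same-numbered libraries from their organ means correlated at -0.0369 to 0.0611, so the main model has no block.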

Additional observations from a re-analysis of the deposited data

Results flagged for a closer look

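Single outlying libraries were not looked for, since an organ has 3 libraries. The values below are those of the members in which the stamen to carpel difference itself differed most between flower types, as log2 differences of differences from the edgeR model of all 18 libraries. No cause of these differences was tested.

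In the NIP7-1 aquaporin (LITCHI014717) the organ difference was 12.71 larger in F than in m flowers and 7.30 larger in M than in m flowers, with the reads in the stamen in F and in the carpel in m flowers. The NIP-type aquaporin (LITCHI008218) had 9.67 for F minus m, and F-carpel held no read of it. SIP1-1 (LITCHI019993) went the other way, with -4.32 for F minus M, since it was higher in carpel in F flowers and in stamen in M flowers. The AKT1 channel (LITCHI027388) had -11.71 for F minus M and -8.63 for F minus m, with nearly all of its reads in F-carpel and no read in M-carpel.

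Among antiporters, CHX15 (LITCHI027409) had 9.58 and CHX27 (LITCHI021607) 8.13 for F minus M, both with no read in F-carpel. CHX24 (LITCHI025222) had -4.83 for M minus m, with 3 reads in m-carpel. The transporter POT11 (LITCHI028322) had -5.54 for F minus m and -4.35 for M minus m, also with 3 reads in m-carpel. PIP2-5 (LITCHI027284) had 2.70 for M minus m, with stamen below carpel in both flower types. Of these values only those of SIP1-1 and PIP2-5 do not rest on an organ with 3 or fewer reads, and the others depend on the prior count of the fit.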

How the results depend on the processing

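Of 364 counts of called members under the alternatives, over 13 comparisons, 361 stayed within 1.5 times the count of the main model. The other 3 came from limma on log2(FPKM + 1), which called 35 members for F-carpel minus m-carpel (59 in edgeR), 15 for M-carpel minus m-carpel (31) and 30 for F-stamen minus m-stamen (53). Of 1872 recomputed values of named members, 1844 kept direction and call, 26 lost the call (14 of them under limma on log2(FPKM + 1)) and 2 changed sign. Both sign changes came from leaving out the M flowers, in values that were not called: the mean of stamens minus the mean of carpels became 0.16 for GORK (LITCHI005274), against -0.09 with all flowers, and -0.074 for PIP1-2 (LITCHI022094), against 0.44. The median over all loci moved from 0 by up to 0.18 with TMM (F-stamen minus M-stamen), 0.13 with RLE size factors and 0.43 with limma on log2(FPKM + 0.1) (F-stamen minus m-stamen).

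Leaving out 1 of the 18 libraries at a time gave 68 to 76 called members for F-stamen minus F-carpel, 57 to 59 for M-stamen minus M-carpel, 81 to 87 for m-stamen minus m-carpel and 64 to 67 for the mean of stamens minus the mean of carpels. The ranges were 50 to 55 for F-carpel minus M-carpel, 54 to 59 for F-carpel minus m-carpel and 29 to 32 for M-carpel minus m-carpel. They were 27 to 34 for F-stamen minus M-stamen, 48 to 53 for F-stamen minus m-stamen and 31 to 36 for M-stamen minus m-stamen. For the organ differences they were 60 to 64 for F minus M, 53 to 58 for F minus m and 46 to 51 for M minus m.

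With the replicate number as a replicate block, members called in edgeR were 71 for F-stamen minus F-carpel, 57 for M-stamen minus M-carpel and 85 for m-stamen minus m-carpel, and no count moved by over 1.5 times. The libraries shared only a number, and not every library correlated best with its own number in another organ. Depth limits the weak members: 32 were too low to test, and calls that rest on a few reads per organ are the least certain.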
